A study of Mus musculus with 6 samples.

Results

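Genes of neutrophil granules and late neutrophil maturation, 10 in number, were followed in marrow progenitors of mice that carry a GFP reporter of Hes1: Ltf, Ngp, Camp, Lcn2, Mmp8, Mmp9, S100a8, S100a9, Padi4 and Lyz2. A probe set was included when the platform annotation gave it exactly 1 gene symbol and that symbol was 1 of the 10, which found 11 probe sets of 45037 and 10 genes of 18193. Mmp9 had 2 probe sets and the others 1 each. Marrow cells without lineage antigens or Sca1 but with cKit, which the labels call adult myeloerythroid progenitors, were profiled on 3 Affymetrix arrays of GFP-positive and 3 of GFP-negative cells. All came from male mice of 6 weeks with the genotype Hes1 GFP/WT, so both groups carried the reporter allele next to a wild-type one and were separated by their GFP signal. How many animals were behind an array, and whether arrays came from separate animals, is not stated in the labels, so the p-values speak only to variation among these 6 arrays, and that variation may be technical.

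Neutrophils fill their granules in waves. Primary granules form first, in promyelocytes, and hold myeloperoxidase and serine proteases. Secondary granules form later, in myelocytes and metamyelocytes under control of C/EBP epsilon, and hold lactoferrin and the cathelicidin precursor, while tertiary granules with gelatinase follow. Secondary granule genes are used in the literature as marks of a cell that has passed the progenitor stage, and the lineage gate of this sort removes cells with the mature granulocyte surface antigens. Lyz2 differs from the rest in its range: lysozyme M is made along the whole granulocyte, monocyte and macrophage branch, starting in progenitors.

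The 250 bases before the start of transcription are shown for Ltf, Ngp, Camp, Padi4 and Lyz2, which were picked from these data. Ltf, Ngp and Camp are secondary granule genes with their highest signal on GFP-positive array 2 and their lowest on GFP-negative array 3. S100a8 and S100a9, not shown, had the same highest and lowest arrays. Padi4 and Lyz2 are the pair that was lower in GFP-positive cells. Sequences are RefSeq's, build GRCm38.p6, each written 5′ to 3′ on the strand of its gene, with matches to TTGCNNAA, a core of the C/EBP site, in capitals on either strand.
Ltf, chr9:111019042-111019291, plus strand: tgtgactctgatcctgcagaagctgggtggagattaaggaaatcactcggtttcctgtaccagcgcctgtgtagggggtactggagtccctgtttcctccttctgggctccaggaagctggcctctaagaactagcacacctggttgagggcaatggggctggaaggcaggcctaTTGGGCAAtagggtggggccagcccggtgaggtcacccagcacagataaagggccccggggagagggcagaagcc
Ngp, chr9:110419558-110419807, plus strand: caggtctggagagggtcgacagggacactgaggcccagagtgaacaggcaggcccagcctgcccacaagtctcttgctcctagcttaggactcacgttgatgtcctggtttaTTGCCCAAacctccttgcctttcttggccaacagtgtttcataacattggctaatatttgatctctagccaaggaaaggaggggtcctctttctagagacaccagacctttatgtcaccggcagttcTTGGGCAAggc
Camp, chr9:109849457-109849706, minus strand: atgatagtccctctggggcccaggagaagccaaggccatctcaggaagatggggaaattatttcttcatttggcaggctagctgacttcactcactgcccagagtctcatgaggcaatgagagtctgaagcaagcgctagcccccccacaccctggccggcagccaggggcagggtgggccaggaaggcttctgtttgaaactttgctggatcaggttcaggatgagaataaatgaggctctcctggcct
Padi4, chr4:140774204-140774453, minus strand: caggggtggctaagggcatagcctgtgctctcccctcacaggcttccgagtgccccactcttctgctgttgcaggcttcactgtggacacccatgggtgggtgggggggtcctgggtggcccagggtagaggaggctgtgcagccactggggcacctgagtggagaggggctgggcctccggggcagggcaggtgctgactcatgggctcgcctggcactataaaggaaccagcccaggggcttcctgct
Lyz2, chr10:117282273-117282522, minus strand: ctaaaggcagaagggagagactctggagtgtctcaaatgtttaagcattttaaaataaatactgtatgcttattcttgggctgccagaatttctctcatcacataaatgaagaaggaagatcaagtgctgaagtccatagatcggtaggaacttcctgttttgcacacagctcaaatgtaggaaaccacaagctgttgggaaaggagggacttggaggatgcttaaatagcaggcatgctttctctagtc
Of the 9 genes with an entry in the promoter table (all but Mmp9), 5 held TTGCNNAA in this window: Ltf, Ngp, Lcn2, Mmp8 and S100a9. Over 27025 promoter entries of the same length, 9.55% held it. In Ngp it was matched at positions -138 and -11 relative to the start, and in Ltf at -75. PU.1's core GAGGAA was found in 4 of the 9 (Ltf, Lcn2, Mmp8 and S100a8) and in 23.1% of all promoters, and the GATA site AGATAA in 2 of the 9 (Ltf and S100a9) and in 10.3% of all. No match overlapped another. Camp, Padi4 and Lyz2 held none of the 3 motifs in these letters within this window.

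Values are the authors' RMA probe set intensities, given here as log2. Intensity medians of the arrays were 59.9 to 64.9, which is 5.90 to 6.02 on the log2 scale. Hes1 lay between 7.12 and 7.20 on the GFP-positive arrays and between 5.74 and 6.01 on the GFP-negative arrays, in the order the labels give. Kit lay between 11.13 and 11.24 on GFP-positive arrays and between 11.31 and 11.53 on GFP-negative arrays, and Itgam, the gene of the Mac-1 antigen removed by the usual lineage gate, lay between 3.83 and 4.45 on all 6. GFP-positive array 1 and GFP-negative array 3 stood apart by their signal for Jchain, a plasma cell gene, at 8.65 and 8.85 against 3.64 to 4.08 on the other 4. This rests on 1 probe set. Mzb1, from the same marker list, did not single out these arrays. It lay at 6.58, 6.09 and 7.07 on GFP-positive arrays and at 5.98, 5.36 and 5.64 on GFP-negative arrays. Ebf1, a B cell gene, was highest on GFP-negative array 3, at 8.72. Over all probe sets 45.3% of calls were higher in GFP-positive cells, and 61.5% once each array's median was subtracted. Precision is limited by having 3 arrays a group.

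Set against GFP-negative cells, GFP-positive cells had lower signal for 2 of the 10 genes, Lyz2 and Padi4, and none of the 10 was called higher (limma, Benjamini-Hochberg adjusted p under 0.05 over all probe sets). Of all genes, 18.1% were called, 9.92% lower and 8.15% higher. At an unadjusted p under 0.05 the count was likewise 2 lower and 0 higher, while 6743 of the 18193 genes passed that limit in either direction. The other 8 had wide spreads within the groups: 7 had a higher mean in GFP-positive cells and 1, Mmp8, a lower mean, and none passed the test. The median log2 change over the 10 genes was 0.66, against 0.11 over all genes. Groups did not overlap for 3 of the 10 (Lyz2, Padi4 and Camp), while 45.6% of all genes had groups that did not overlap, 28.9% with GFP-positive cells higher and 16.7% with them lower. The same 2 genes were called when the 2 arrays with Jchain signal were left out and when any 1 array was left out. Leaving out those 2 arrays kept 2 per group, and calls over all probe sets fell from 6312 to 2333. A call lost there does not by itself mean a smaller change. In a bulk sample, fewer cells of a type and less RNA per cell cannot be told apart.

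**Figure D1:**
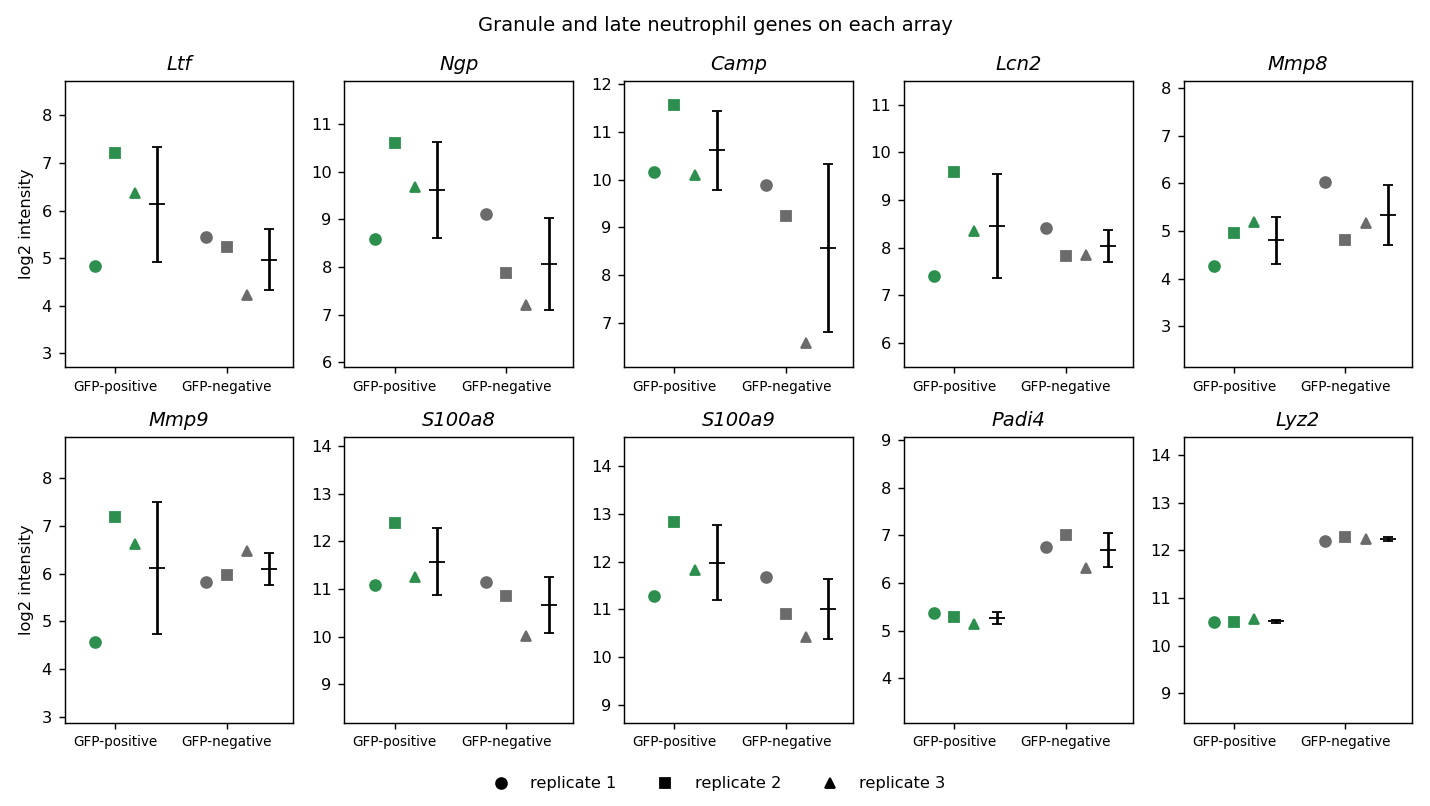
Log2 intensity of each of the 10 genes on every array, with GFP-positive arrays in green on the left and GFP-negative arrays in grey on the right of each panel. Marker shape gives the replicate number, bars give mean ± SD (n = 3), and each panel spans the same 6 log2 units. Lyz2 and Padi4 separate cleanly, while Ltf, Ngp, Camp, Lcn2, S100a8 and S100a9 are widely spread, with GFP-positive array 2 on top.

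Lyz2 encodes lysozyme M, which cuts the peptidoglycan of bacterial cell walls. Its log2 intensity was 10.49, 10.50 and 10.55 on the GFP-positive arrays and 12.19, 12.28 and 12.24 on the GFP-negative arrays. The 2 groups lay far apart, with almost no spread inside either. The mean was 10.52 ± 0.03 in GFP-positive and 12.24 ± 0.05 in GFP-negative cells (SD, n = 3 each), a 3.29-fold lower signal (log2 change -1.72, 95% interval -1.92 to -1.52; limma adjusted p = 0.000936). This interval was the narrowest of the 10 genes. Lyz1, the neighbouring gene for the intestinal lysozyme and a near copy of Lyz2, was also lower, at -1.37 on the log2 scale (adjusted p = 0.00196), with 2 of its 3 probe sets called. Probe sets of paralogs this alike may share signal, so the pair cannot be read as separate measurements.

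Padi4 encodes the deiminase that turns arginine of histones into citrulline and acts when neutrophils release chromatin. Its log2 intensity was 5.38, 5.28 and 5.13 on GFP-positive arrays, against 6.76, 7.01 and 6.31 on GFP-negative arrays. All GFP-positive values were below the lowest GFP-negative one, and they lay under the median of their arrays. The log2 change was -1.43 (SE 0.19, limma adjusted p = 0.00560), which is 2.70-fold lower. A fold measured near the dim end of an array may be understated, which was not tested. Tested against a fold of 1.5 in place of 0, Padi4 lost its call (adjusted p = 0.0585). Of the other deiminases, Padi2 was 3.40-fold lower (adjusted p = 0.00363), and Padi1, Padi3 and Padi6 had log2 changes of 0.07, 0.58 and 0.43 with no call.

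Lyz2 is also a monocyte gene, and most monocyte genes on the list were lower in the same group. Of 12 measured monocyte and macrophage markers, 8 were called lower and 1, Vcam1, higher (1 of its 3 probe sets). Without the 2 arrays with Jchain signal, 4 were lower and 0 higher. Their summed intensity was 5423 to 8286 on GFP-positive arrays and 22614 to 23265 on GFP-negative arrays. Csf1r, which encodes the M-CSF receptor, fell to 8.85 ± 0.74 in GFP-positive cells, against 11.59 ± 0.19 in GFP-negative cells (limma adjusted p = 0.00530). Without the 2 arrays the log2 change of Csf1r was -2.87 (adjusted p = 0.0624), against -2.74 with all arrays. Ctss, a lysosomal protease, had a log2 change of -2.32, Klf4, a monocyte transcription factor, of -2.12 and Cd68, a macrophage lysosomal protein, of -1.81, all called. C1qa and C1qb, complement genes of macrophages, had log2 changes of 0.59 and 0.78 with no call (named after their values were seen). Among the GFP-positive arrays Lyz2 was flat while Csf1r lay between 8.08 and 9.55. The part of monocyte-lineage cells in the change of Lyz2 was not tested.

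Camp encodes the cathelicidin precursor, whose cleaved peptide kills bacteria. The log2 intensity of Camp was 10.17, 11.57 and 10.10 on the GFP-positive arrays and 9.89, 9.24 and 6.57 on the GFP-negative arrays. All 3 GFP-positive values were above all GFP-negative ones, but GFP-negative arrays alone spanned a 9.98-fold range. Its mean was 10.62 ± 0.83 in GFP-positive and 8.57 ± 1.76 in GFP-negative cells. The log2 change of 2.05 had a 95% interval of -0.10 to 4.20 and an adjusted p of 0.175 (limma). Without GFP-negative array 3 the change was 1.05, and without GFP-positive array 2 it was 1.57.

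Ngp encodes neutrophilic granule protein, a cystatin relative of secondary granules. Its log2 intensity was 8.59, 10.60 and 9.68 on the GFP-positive arrays, against 9.12, 7.87 and 7.21 on the GFP-negative arrays. GFP-positive array 1 was below GFP-negative array 1, so the groups overlapped. The log2 change was 1.55 with a 95% interval of -0.002 to 3.11 (limma adjusted p = 0.159), and the arrays spanned 4.04-fold in GFP-positive and 3.78-fold in GFP-negative cells. Leaving out 1 array moved the change of Ngp between 1.07, without GFP-positive array 2, and 2.08, without GFP-negative array 1.

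Ltf encodes lactoferrin, the iron-binding protein that defines secondary granules. Its log2 intensity was 4.83, 7.20 and 6.37 on the GFP-positive arrays and 5.44, 5.24 and 4.23 on the GFP-negative arrays. Most of these values lay under the array medians, with GFP-positive arrays 2 and 3 above them. The groups overlapped through GFP-positive array 1, and the log2 change was 1.17 (95% interval -0.35 to 2.69; limma adjusted p = 0.258). Without GFP-positive array 2 the change of Ltf was 0.63, and without GFP-positive array 1 it was 1.82 (adjusted p = 0.0610).

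S100a8 and S100a9 encode the subunits of calprotectin, a calcium- and metal-binding dimer that makes up much of the neutrophil cytosol. S100a8 had log2 intensities of 11.09, 12.38 and 11.26 on GFP-positive arrays and of 11.15, 10.85 and 10.01 on GFP-negative arrays. For S100a9 the values were 11.28, 12.83 and 11.83 on GFP-positive arrays and 11.67, 10.91 and 10.42 on GFP-negative arrays. Both genes were brightest on GFP-positive array 2 and dimmest on GFP-negative array 3, and in both GFP-negative array 1 lay above GFP-positive array 1. Log2 changes were 0.90 for S100a8 and 0.98 for S100a9 (limma adjusted p = 0.203 and 0.209), with 95% intervals from -0.12 to 1.93 and from -0.15 to 2.11. Without GFP-positive array 2 the changes were 0.50 for S100a8 and 0.55 for S100a9, and without GFP-negative array 3 they were 0.58 and 0.69. The 2 genes are neighbours on chromosome 3.

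Lcn2 encodes neutrophil gelatinase-associated lipocalin, which takes iron-loaded siderophores away from bacteria. Its log2 intensity was 7.41, 9.59 and 8.35 on GFP-positive arrays, which spanned 4.52-fold, against 8.41, 7.82 and 7.86 on GFP-negative arrays. Both the highest and the lowest array of the 6 were GFP-positive. The log2 change of 0.42 (95% interval -0.85 to 1.69; limma adjusted p = 0.621) became -0.15 without GFP-positive array 2.

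Mmp9 encodes gelatinase B of tertiary granules, and Mmp8 the neutrophil collagenase of secondary granules. The brighter Mmp9 probe set had log2 intensities of 4.56, 7.19 and 6.63 on GFP-positive arrays, a 6.18-fold range, and of 5.83, 5.97 and 6.47 on GFP-negative arrays. The means differed by 0.04 (95% interval -1.55 to 1.62; limma adjusted p = 0.977). The dimmer Mmp9 probe set lay at 5.24, 5.72 and 5.33 on GFP-positive arrays and at 5.01, 4.93 and 4.77 on GFP-negative arrays, without overlap, and its log2 change of 0.53 was not called (adjusted p = 0.0696). The 2 probe sets thus gave different pictures of 1 gene. Mmp8 was dim throughout, at 4.26, 4.97 and 5.20 on GFP-positive arrays, against 6.04, 4.82 and 5.16 on GFP-negative arrays (log2 change -0.53; 95% interval -1.43 to 0.37; adjusted p = 0.371). Among 14 measured matrix metalloproteases that were not members, 3 were called lower (Mmp19, Mmp2 and Mmp24) and 1 higher, the membrane-bound Mmp14. Mmp14 changed by 1.34 on the log2 scale (limma adjusted p = 0.00793), and of the 3 called lower, Mmp19 at -2.22 had the largest change. Of their probe sets, 1 of 2 was called for each of Mmp19 and Mmp2, 1 of 3 for Mmp24 and 3 of 3 for Mmp14. Without the 2 arrays with Jchain signal, Mmp14 changed by 1.44 and Mmp19 by -2.40, and neither was called (limma adjusted p = 0.0683 and 0.0535). There 2 were lower and 0 higher. Mmp24 was called in 7 of 15 alternatives.

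**Figure D2:**
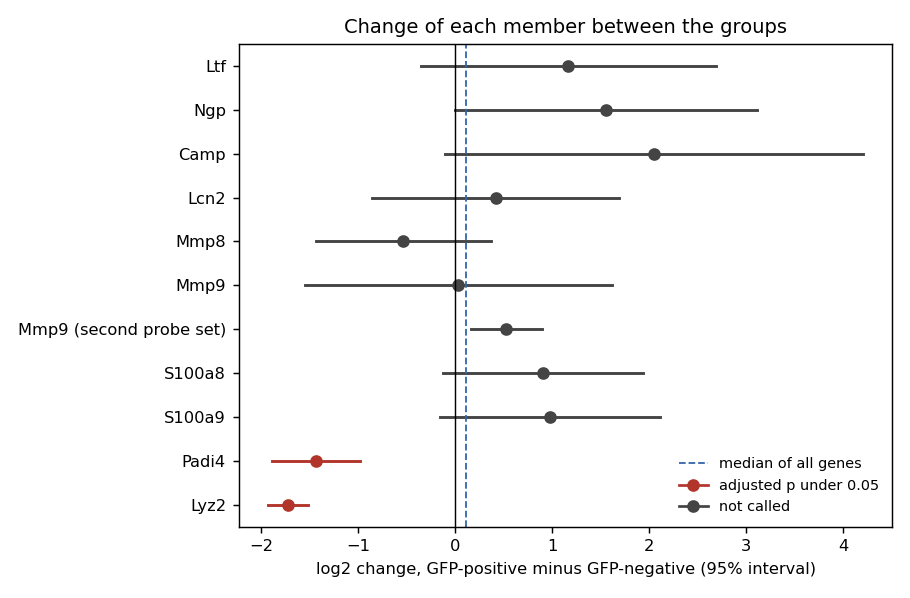
Log2 change (GFP-positive minus GFP-negative) of each member with its 95% interval from the limma fit, including the dimmer Mmp9 probe set, and the median of all genes as a dashed line. Lyz2 and Padi4 have short intervals below 0, while the intervals of Ltf, Ngp, Camp, S100a8 and S100a9 lie mostly above 0 but reach it.

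Most of the 8 genes that were not called shared an array pattern inside the groups. GFP-positive array 2 was the highest of the 6 arrays for 7 of the 10 genes (Ltf, Ngp, Camp, Lcn2, Mmp9, S100a8 and S100a9), whereas it was the highest for 20.3% of all genes. GFP-negative array 3 was the lowest of the 6 for 5 of the 10 (Ltf, Ngp, Camp, S100a8 and S100a9), against 25.3% of all genes. Camp deviated from its own mean by 1.98 log2 units on GFP-positive array 2 and by -3.02 on GFP-negative array 3. For Ngp these deviations were 1.76 and -1.64, and for Ltf 1.65 and -1.32. Lcn2, Mmp8 and Mmp9 had their lowest value on GFP-positive array 1 instead, and Mmp8 its highest on GFP-negative array 1. Lyz2 and Padi4 did not show the pattern: on GFP-positive array 2 they deviated by -0.87 and -0.70, close to the other GFP-positive arrays.

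**Figure D3:**
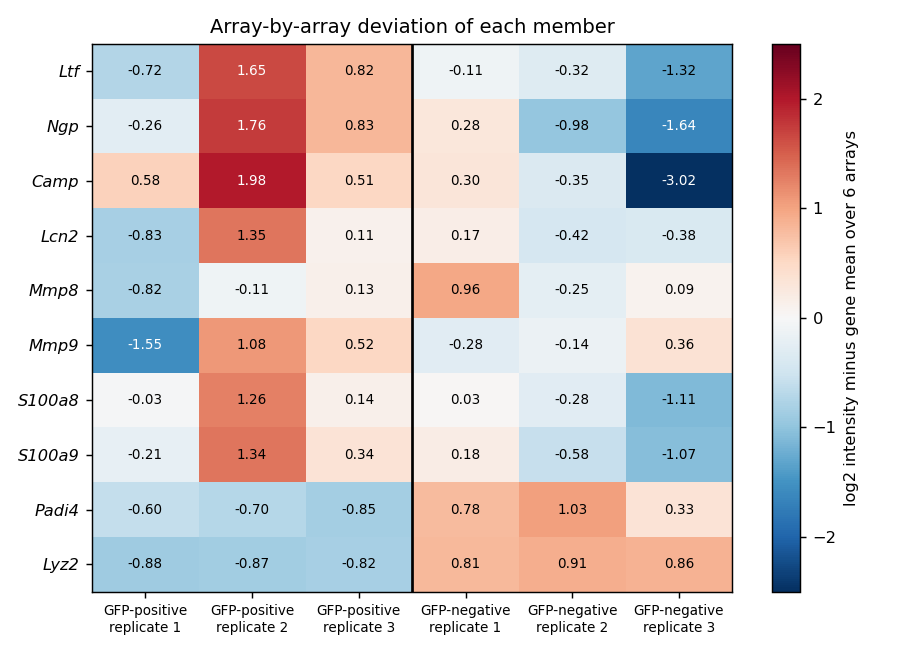
Log2 intensity of each member on each array minus that gene's mean over the 6 arrays, GFP-positive arrays on the left and GFP-negative arrays on the right. The column of GFP-positive replicate 2 is red for 7 genes and GFP-negative replicate 3 is blue for Ltf, Ngp, Camp, S100a8 and S100a9, while Padi4 and Lyz2 split by group.

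The size of this spread was unusual for the arrays. The residual SD within groups was 1.37 log2 units for Camp, 1.01 for Mmp9, 0.99 for Ngp, 0.97 for Ltf, 0.81 for Lcn2, 0.71 for S100a9, 0.65 for S100a8 and 0.56 for Mmp8. Over all probe sets the median was 0.18, the 95th percentile 0.57 and the 99th percentile 0.85. Of the 10 genes, 7 were above the 95th percentile, against 2.64% of all genes, and GFP-positive array 2 was the highest array for all 7. It was the highest for 13.5% of the 481 genes that exceeded the same limit across the whole table. Padi4 had a residual SD of 0.27, and Lyz2 one of 0.04, with a smaller one in 2.08% of probe sets.

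**Figure D4:**
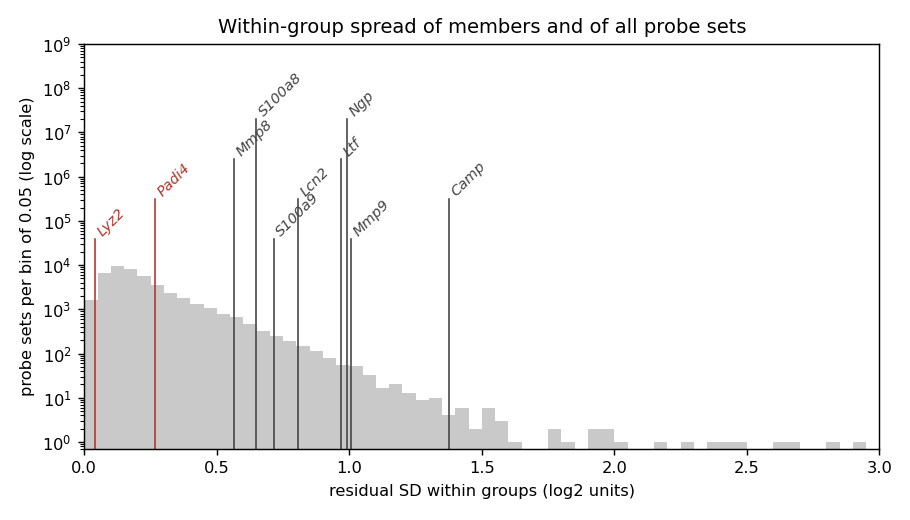
Histogram (log count axis) of the residual SD within groups over all probe sets, with vertical lines at the members (line heights only separate the names). Lyz2 and Padi4, in red, lie in the bulk or below it, and 7 of the other 8 lie beyond the 95th percentile of 0.57.

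Within an array, the mean log2 value of Ltf, Ngp and Camp could be set against Lyz2. The difference was -2.63, -0.71 and -1.83 on GFP-positive arrays and -4.04, -4.84 and -6.24 on GFP-negative arrays. The group means differed by 3.31, with Lyz2 by itself at a log2 change of -1.72. An exact permutation test of the difference gave p = 0.1, the smallest value it could give with these arrays. It cannot decide the question, and these genes were set against each other with their values known, so no conclusion is drawn from it. The level of the difference depends on the probe sets and only its change between arrays can be read.

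Markers of neutrophils beyond the progenitor stage were few on this platform. Of 7 on the list, 4 had a probe set with 1 gene: Cxcr2, Itgam, Cd177 and Chil3. Their summed intensity was 423, 1322 and 421 on GFP-positive arrays and 547, 582 and 322 on GFP-negative arrays, highest on GFP-positive array 2 and lowest on GFP-negative array 3 as for the granule genes. Chil3, a chitinase-like protein of neutrophils and macrophages, gave most of this sum on GFP-positive arrays, with log2 intensities of 8.35, 10.15 and 8.32 on GFP-positive arrays and of 8.46, 8.21 and 6.89 on GFP-negative arrays. Cd177, a neutrophil surface antigen, lay at 6.48 on GFP-positive array 2 and between 4.37 and 5.63 on the other 5 arrays. Itgam was near the floor on all arrays, and the chemokine receptor Cxcr2 was called lower instead (log2 change -1.45, limma adjusted p = 0.0203). Without the 2 arrays with Jchain signal the change of Cxcr2 was -1.40 and was not called (adjusted p = 0.134). The part of such cells in the spread of the granule genes was not tested. Some eosinophil genes followed another order. Prg2, the major basic protein, lay at 3.43, 4.31 and 10.89 on GFP-positive arrays and at 9.79, 9.69 and 10.98 on GFP-negative arrays. Among GFP-positive arrays, Epx and Prg3 were likewise highest on array 3. Siglecf differed, at 7.88, 8.71 and 8.02 on GFP-positive arrays and 9.36, 9.88 and 9.92 on GFP-negative arrays, and was called lower (limma adjusted p = 0.0140).

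Other genes of late neutrophils behaved in both ways. Of 32 measured genes on this list, which holds no member, 13 were called lower and 0 higher, with a median log2 change of -0.58 against 0.11 over all genes. Without the 2 arrays with Jchain signal, 8 were lower and 1 higher. All 4 measured subunits of the NADPH oxidase, which makes superoxide in phagocytes, were among the 13: Ncf4 with a log2 change of -2.18, Ncf1 of -2.08, Cybb of -1.36 and Cyba of -0.61 (limma adjusted p = 0.000936, 0.00322, 0.00428 and 0.0387). Without the 2 arrays, the changes of Cybb and Cyba were -1.23 and -0.70, and neither was called. Cyba kept its call in 8 of 15 alternatives. Clec4e, a lectin receptor for mycobacterial lipid, had the largest fall on the list at -2.60 (limma adjusted p = 0.00104), with 1 of its 2 probe sets called. The integrin chain Itgal had a change of -1.82 (adjusted p = 0.00706). Hp, or haptoglobin, and Slpi, an inhibitor of neutrophil elastase, had log2 changes of -1.63 and -1.74 (adjusted p = 0.00372 and 0.00269), named with Cybb and Cyba after their values were seen.

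The remaining 19 genes of the list were not called, and 7 of these had a residual SD above the 95th percentile of probe sets. GFP-positive array 2 was the highest array for 4 of the 7. Stfa3, a stefin that inhibits cysteine proteases, was 1 of them, with log2 intensities of 4.65, 8.38 and 7.80 on GFP-positive arrays and of 5.48, 6.00 and 4.76 on GFP-negative arrays (limma adjusted p = 0.323; named after its values were seen). It was called higher without GFP-positive array 1, with a log2 change of 2.68, and without both arrays with Jchain signal, at 2.35. No gene with a residual SD above that limit was among the 13 called lower. Of the 25 genes of the list not above the limit, 13 were called lower. Over all genes, 45 of the 481 above the limit were called lower, and 1760 of the 17712 not above it. With only 7 genes above the limit on this list, no conclusion is drawn.

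Most primary granule genes, which come earlier, were lower in GFP-positive cells. Of 13 measured, 11 were called lower and 0 higher, and the median residual SD was 0.15, against 0.76 over the 10 members. Serpinb1a, which protects the cell from its own granule proteases, had a log2 change of -1.60 (adjusted p = 0.00150), and Prtn3, proteinase 3, of -1.16 (adjusted p = 0.00665). Gstm1 and Hexa had changes of -1.39 and -1.31 (adjusted p = 0.00305 and 0.00338). Fcnb, or ficolin B, was not called and had its highest value on GFP-positive array 2 (6.82, 8.10 and 7.40 on GFP-positive arrays and 7.53, 7.35 and 7.10 on GFP-negative arrays; named after its values were seen). The count of lower genes was 7 without the 2 arrays with Jchain signal and 3 against a fold of 1.5.

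Regulators of the neutrophil lineage were lower as well, with 8 of 13 called lower and 2 called higher, and 4 and 1 without the 2 arrays with Jchain signal. Irf8, a factor of the monocyte branch, had a log2 change of -2.42, and Csf3r, which encodes the G-CSF receptor, of -1.90. Spi1, which encodes PU.1, changed by -1.89 and Cebpa, needed for granulocyte-monocyte progenitors, by -1.57 (limma adjusted p = 0.00108, 0.00124, 0.00113 and 0.00137). The 2 called higher were Klf5 at 1.07 and the erythroid factor Gata1 at 0.82, named because they were the only such calls. Cebpe, the main factor of secondary granule genes, was not analysed here. Of 5 measured erythroid markers, 4 were called higher, among them Epor, the erythropoietin receptor, with a change of 1.70, and 2 were without the 2 arrays with Jchain signal.

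**Figure D5:**
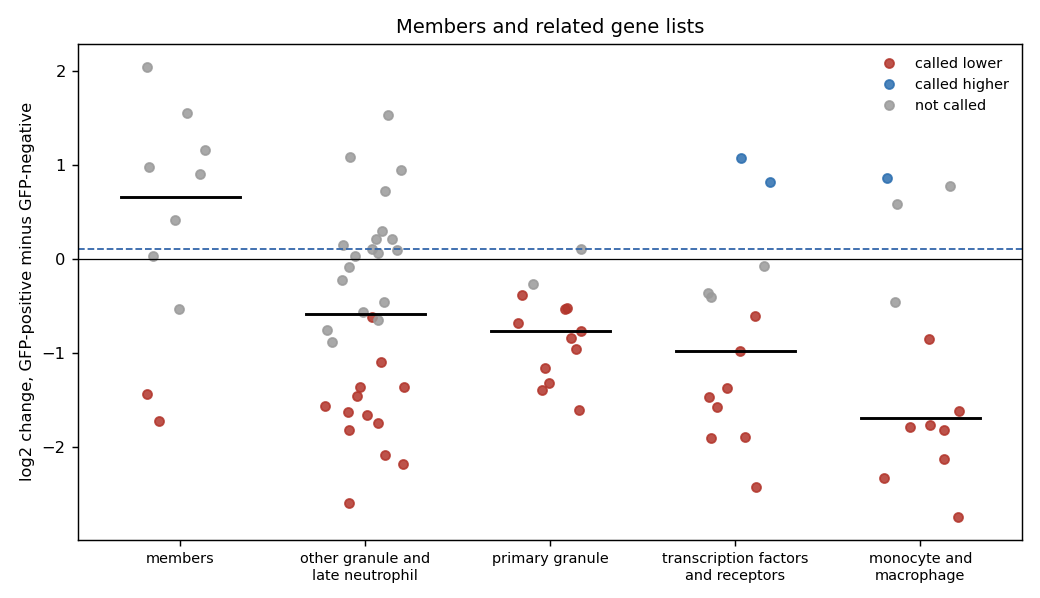
Log2 change of each gene (1 point per gene, GFP-positive minus GFP-negative) for the members and 4 lists, coloured by limma call, with each list's median as a black bar and the median of all genes as a dashed line. The members' median of 0.66 lies above 0, while the medians of the 4 lists run from -0.58 to -1.69.

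Partners of the member proteins were called lower or not called. Of 13 measured receptors and related proteins, 4 were called lower, and 0 were without the 2 arrays with Jchain signal. Tlr4, a receptor for which calprotectin is a ligand, had a log2 change of -1.99, the S100 gene S100a6 of -1.42, Lrp1, an endocytic receptor that takes up lactoferrin, of -1.14 and S100a10 of -0.36. Their limma adjusted p-values were 0.0160, 0.0177, 0.0245 and 0.0485. Only 1 of 4 probe sets was called for Tlr4, 1 of 2 for Lrp1 and 2 of 3 for S100a10. Calls were kept in 10 of 15 alternatives for Tlr4 and for S100a6, in 8 of 14 for Lrp1 and in 6 of 15 for S100a10. The lipocalin 2 receptors Lrp2 and Slc22a17 had log2 changes of 0.08 and -0.12 and were not called, and are named after their values were seen.

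Across the 6 arrays, the genes most like the mean of Ltf, Ngp and Camp were sought among 545 other genes with an SD of at least 1 log2 unit. Chil3 was the most alike (Pearson r = 0.942, n = 6 arrays), followed by Mkln1os at 0.917, Stfa2l1, a stefin A gene, at 0.897, Gjb2, a gap junction connexin, at 0.879, Clca3a1 at 0.876 and Bik, a Bcl-2 family member, at 0.835. These values mix the difference between groups with the spread inside them, all points share the 2 groups and the array effects, and they are a description without a test. Stfa2l1 had the same peak, at 6.19, 10.11 and 8.90 on GFP-positive arrays and 7.17, 7.17 and 5.81 on GFP-negative arrays, and was not called (limma adjusted p = 0.292), but was without GFP-positive array 1, at a log2 change of 2.79. Mkln1os, Gjb2, Clca3a1 and Bik instead had groups that did not overlap and were called higher (adjusted p = 0.0301, 0.0162, 0.00884 and 0.0357). The calls of Mkln1os, Gjb2 and Bik were lost when either GFP-positive array 2 or array 3 was left out, and those of Mkln1os and Bik also without any 1 of the GFP-negative arrays.

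Camp, Ngp and Ltf lie in this order along chromosome 9 in the RefSeq gene table, with 28 protein-coding genes that are no members between the first and the last. Of these, 26 were measured, 2 were called higher and 2 lower, and the median residual SD was 0.19. GFP-positive array 2 was the highest array for 2 of the 26.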

How the data were processed

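The authors deposited intensity values, linear in scale, which RMA produced per the submitters' processing notes; its version and settings are not given here. Per the labels' protocols, 5 ng of total RNA was amplified with a NuGEN Ovation kit. Values were taken to log2 without further normalization, 64 array controls were left out, and limma 3.58.1 (R 4.3.3) was fitted to 45037 probe sets (GFP-positive minus GFP-negative, no covariate, Benjamini-Hochberg over all probe sets, threshold 0.05). No detection calls were used. Where a gene had several probe sets, the one brightest on average stood for it. Names came from GEO's platform annotation, and all 10 members matched RefSeq symbols (GRCm38.p6, names and promoters only).

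Members, lists and tests were chosen with earlier results of these data known. Named were all members, up to 4 called genes with the largest change on each list (the 2 brightest where fewer than 2 were called), and the 6 genes most alike over the arrays; others are stated as named afterwards or serve as values. Marker lists of further cell types were counted too, and the fit was tested on simulated data. Alternatives were a replicate block, other scalings, priors, weights, filters, a fold floor, the mean of a gene's probe sets, each array left out, and, added after seeing the data, both arrays with Jchain signal left out. Analysis used Python 3.11.15 with pandas 2.3.3, numpy 2.4.6, scipy 1.17.1 and matplotlib 3.10.9.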

Additional observations from a re-analysis of the deposited data

How the results depend on the processing

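Lyz2 was called lower in all 15 alternatives and Padi4 in 14, the exception being the fold floor of 1.5, where 1 member was called lower. No alternative called a member higher. Same-numbered arrays deviated from their group means with correlations of 0.019 to 0.055, each above all those of differently numbered arrays (-0.043 to 0.016). The labels do not say that the numbers pair samples, so the main fit did not take them as pairs. With the replicate number as a block, 2 members were lower and 0 higher, and 1969 probe sets were higher and 2872 lower, against 2860 and 3452 without it. Among the calls that the block ended were those of Mkln1os, Gjb2, Clca3a1 and Bik. It also ended those of Lrp1, S100a6, S100a10 and Mmp24, and of the erythroid markers Car1 and Tfrc. Subtracting array medians gave 5218 higher calls, so that 61.5% of calls were higher in place of 45.3%, and the fold floor left 348 higher and 954 lower. Leaving out 1 array gave 1212 to 2243 higher and 2192 to 3098 lower calls. Leaving out both arrays with Jchain signal, a choice made after seeing the data, gave 681 higher and 1652 lower. Directions turned for Lcn2 (range on leaving out 1 array -0.15 to 0.94) without GFP-positive array 2, for Mmp9 (-0.50 to 0.82) without GFP-positive array 2 (-0.50), GFP-positive array 3 (-0.21), GFP-negative array 1 (-0.09) or GFP-negative array 2 (-0.03), and for Cd177 (-0.50 to 0.56) without GFP-positive array 2 (-0.50) or GFP-negative array 3 (-0.07). The cause was not tested. The dimmer probe sets, Ltf and Mmp8 among them, were left out in 1 alternative, so these have no value there.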

Other observations

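The cytotoxic granule genes Gzmb and Gzma, on the list of T and natural killer cells, were higher in GFP-positive cells, with limma adjusted p = 0.000936 and 0.0124. Gzmb had log2 intensities of 9.50, 9.20 and 9.56 on GFP-positive arrays and of 5.48, 5.09 and 5.70 on GFP-negative arrays. Nkg7, from the same list, went the other way. Its mean was 11.67 in GFP-positive and 12.83 in GFP-negative cells (log2 change -1.16, limma adjusted p = 0.0134). Of 10 measured B cell and plasma cell genes, 2 were called lower and 0 higher, and GFP-positive array 2 was the highest array for 1 of them. Of 7 T and natural killer cell genes, 2 were higher and 1 lower, with GFP-positive array 2 the highest for 2. Of 6 basophil and mast cell genes, 4 were lower and 1 higher. Of 5 megakaryocyte genes, 1 was higher and 0 lower, and GFP-positive array 2 was the highest for 0. Of 6 eosinophil genes, 1 was lower, and 3 had a residual SD above the 95th percentile of probe sets with GFP-positive array 2 the highest for 0 of these. Without both arrays with Jchain signal, 2 T and natural killer cell genes were higher and 0 lower, 3 basophil and mast cell genes lower and 0 higher, 0 megakaryocyte genes higher and 0 eosinophil genes lower.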
